A study of Mus musculus with 12 samples.

Results

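WAY-262611, a small molecule that relieves the block which DKK1 puts on canonical Wnt signalling, was given to pregnant mice, and the palatal shelves of their embryos were sequenced. The comparison described here set 3 control embryos from treated dams against 3 control embryos from untreated dams, which are 6 of the 12 libraries in the table. These 6 were taken by the genotype and treatment written in the column names, and no measured value was used to choose them. The other 6 libraries are Pax9-/- littermates, 3 per treatment, and entered the model so that all 4 groups share 1 estimate of the spread between embryos.

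All embryos were C57BL/6, collected at embryonic day 14, and carried by Pax9+/- dams, so that the heterozygous embryos among the controls have lost 1 copy of Pax9. Untreated control 1 was Pax9+/+, and untreated controls 2 and 3 were Pax9+/- littermates of another dam. Treated control 1 was Pax9+/+, and treated controls 2 and 3 were Pax9+/- and Pax9+/+ littermates of another dam. Treated dams received the compound daily through the tail vein from E10.5 to E14. Whether untreated dams were injected with vehicle is not given in the sources used here. The litters were read from the sample titles, which carry a number that they do not explain in words. The agent was given to the dam, so 2 litters per treatment, and not 3 embryos, are the treated units. The number at the start of each column name splits the table into a class of 4 libraries, with untreated and treated control 1, and a class of 8, with controls 2 and 3 of both treatments. Each class holds 1 untreated and 1 treated litter, so treatment and litter cannot be told apart within either.

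Canonical Wnt ligands bind a Frizzled receptor together with LRP5 or LRP6, and this stabilises beta-catenin, which enters the nucleus and activates genes with TCF/LEF factors. DKK1 is a secreted antagonist that binds LRP5 and LRP6, with Kremen proteins as co-receptors, and keeps ligands from forming the complex. Axin2, Lef1, Nkd1 and Dkk1 itself are widely used as readouts of the pathway because beta-catenin activates them, and the pathway is active in palatal epithelium and mesenchyme while the shelves grow and fuse.

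Each library held between 36874942 and 49918715 reads assigned to the listed genes, as recovered from the deposited FPKM values, which scale fragment counts to transcript length and to the size of the library. Osr2, a transcription factor of palatal mesenchyme, stood at 72.9, 71.6 and 68.0 FPKM in the untreated controls and 71.0, 90.9 and 52.8 in the treated ones, and Shox2, which marks the anterior palate, at 51.6, 43.8 and 45.1 against 43.6, 44.2 and 41.7. Both genes were well above 1 FPKM in all 6 libraries. Pax9 was read at 37.5, 21.1 and 20.3 FPKM in the untreated controls and at 28.5, 22.8 and 30.0 in the treated ones, where each value above 28 came from a wild-type embryo. Treated control 2 stood apart from the other libraries, with the strongest tilt toward short transcripts (Pearson's r of its log2 deviation with log2 transcript length of -0.44, against -0.05 to 0.18 in the other 11). In the 8-library class both treated controls carried Y-linked transcripts (Ddx3y at 12.5 and 15.8 FPKM) and neither untreated control did (at most 0.005), so sex and treatment cannot be told apart there. All 4 libraries of the smaller class, by contrast, were high for Xist.

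The first question was whether the canonical pathway read higher in treated control embryos. Of the readouts named above, Axin2, Lef1 and Dkk1 did not pass the test, while Nkd1, described further below, did. Axin2, the feedback scaffold of the beta-catenin destruction complex (chromosome 11, 108920349 to 108950783 in the GRCm38 build), was at 16.4, 13.5 and 13.9 FPKM in untreated controls 1 to 3 and at 15.9, 14.0 and 14.4 in treated controls 1 to 3. The groups overlapped, and the treated wild-type embryo of the smaller class was below its untreated counterpart while both treated embryos of the larger class were slightly above theirs. The treated minus untreated difference was 0.02 ± 0.06 on the log2 scale (SE, n = 3 per group; 95% interval -0.12 to 0.15; adjusted p = 0.86 in limma). Lef1, a nuclear partner of beta-catenin (chromosome 3), was at 4.50, 3.47 and 3.13 FPKM without treatment and at 4.54, 3.51 and 3.25 with it. Its 2 sets of values lay almost on top of each other, with a log2 difference of 0.03 ± 0.08 (95% interval -0.14 to 0.20; adjusted p = 0.82). The interval of each gene rests on embryos and not on dams.

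Dkk1, the secreted protein whose action the compound opposes (chromosome 19, 30545863 to 30549665), was at 2.30, 11.8 and 8.60 FPKM in the untreated controls and at 2.45, 12.1 and 11.6 in the treated ones. Both embryos of the smaller class were far below all 4 of the larger class, whatever the treatment, and within the larger class the treated and untreated values overlapped. The log2 difference was 0.17 ± 0.12 (95% interval -0.10 to 0.43; adjusted p = 0.33).

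**Figure D1:**
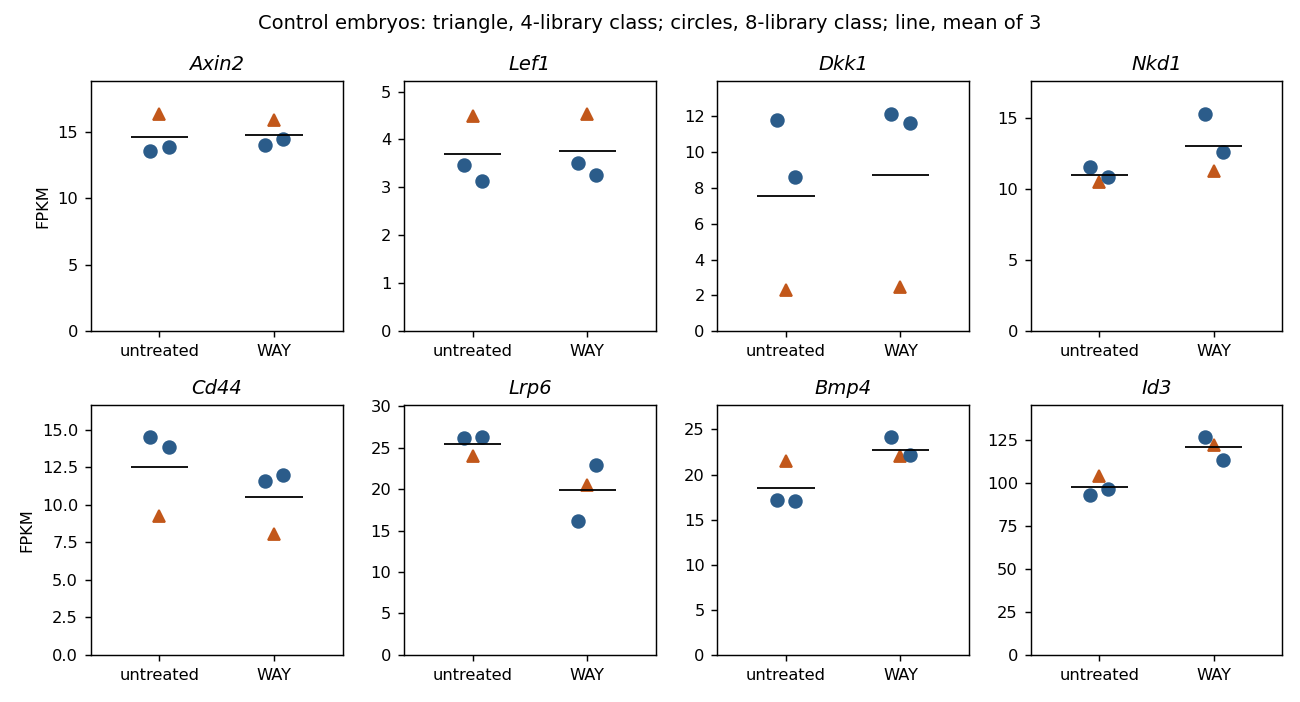
FPKM of 8 genes in each of the 6 control embryos, with a triangle for the 4-library class, circles for the 8-library class and a line at the mean of 3. Axin2 and Lef1 overlapped between treatments and Dkk1 followed the class, while Cd44 and Lrp6 were lower and Nkd1, Bmp4 and Id3 higher in treated embryos of both classes.

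The promoter windows of these readouts show how they differ in TCF/LEF recognition letters near the start site. 3 windows are given, from 250 bases before to 50 after the RefSeq start site on GRCm38.p6, each in the direction of transcription and with the cores CTTTGA and CTTTGT, in either orientation, in capitals. Axin2 is shown as the main readout, Dkk1 as the antagonist and Sp5, a zinc-finger factor induced by Wnt signalling, as the target with the most cores. They lie at chr11:108920099-108920398 on the plus strand, chr19:30549447-30549746 on the minus strand and chr2:70474673-70474972 on the plus strand.
Axin2: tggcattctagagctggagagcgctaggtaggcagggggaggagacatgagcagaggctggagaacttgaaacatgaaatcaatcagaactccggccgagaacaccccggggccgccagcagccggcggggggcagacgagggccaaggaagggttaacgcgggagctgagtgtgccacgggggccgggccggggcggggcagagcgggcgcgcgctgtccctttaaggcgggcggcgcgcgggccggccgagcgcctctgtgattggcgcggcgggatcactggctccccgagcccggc
Dkk1: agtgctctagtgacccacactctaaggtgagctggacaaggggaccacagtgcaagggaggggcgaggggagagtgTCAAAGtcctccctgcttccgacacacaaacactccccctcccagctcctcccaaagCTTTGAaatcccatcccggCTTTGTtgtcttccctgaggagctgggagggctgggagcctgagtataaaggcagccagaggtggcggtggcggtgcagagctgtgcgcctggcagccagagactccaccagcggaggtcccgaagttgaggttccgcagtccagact
Sp5: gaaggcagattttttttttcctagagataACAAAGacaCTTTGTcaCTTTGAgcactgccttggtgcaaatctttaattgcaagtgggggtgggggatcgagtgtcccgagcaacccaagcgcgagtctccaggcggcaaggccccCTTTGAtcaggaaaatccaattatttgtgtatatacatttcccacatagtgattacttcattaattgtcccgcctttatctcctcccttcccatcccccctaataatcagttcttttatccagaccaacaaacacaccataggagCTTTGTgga
The Dkk1 window held 3 cores and the Sp5 window 5, while the Axin2 window held 0. Among 13 canonical targets with a window, 2 held a core (15.4%), against 31.2% of 32851 RefSeq windows of the same length. Sp5 was at 1.84, 1.35 and 1.21 FPKM without treatment and 1.73, 1.40 and 1.32 with it, so the target richest in cores had overlapping groups and a log2 difference of 0.01 ± 0.14 (adjusted p = 0.97). A core is a match of letters in this window and says nothing of binding.

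Over the whole list of canonical Wnt targets, 18 of 21 genes reached 1 FPKM in at least 3 of the 12 libraries, and 1 of them rose and 1 fell at an adjusted p under 0.05. Over all 14107 genes tested the same fit called 11.6%, 5.99% higher and 5.59% lower, so the members' share was close to the background. The median difference of the 18 was 0.02, against 0.04 over all genes. Nkd1, an intracellular feedback inhibitor that binds Dishevelled (chromosome 8), was at 10.54, 11.5 and 10.9 FPKM without treatment and at 11.3, 15.3 and 12.6 with it. Its treated values were the higher ones in both classes, with 1 untreated embryo of the larger class above the treated embryo of the smaller class, and its log2 difference was 0.24 ± 0.07 (adjusted p = 0.047). Cd44, a hyaluronan receptor (chromosome 2), was at 9.29, 14.5 and 13.8 FPKM without treatment and 8.05, 11.6 and 11.97 with it. It was lower in the treated embryos of both classes and differed by -0.24 ± 0.06 (adjusted p = 0.031). Neither Nkd1 nor Cd44 passed when treated control 2 was left out, when the litter effect was dropped (adjusted p = 0.085 and 0.058) or after adjustment for GC content (0.19 and 0.082).

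The other 16 canonical targets missed the threshold. A few had small negative differences close to it, namely Apcdd1, a membrane-bound Wnt inhibitor (-0.23, adjusted p = 0.063), Lgr5, an R-spondin receptor (-0.19, adjusted p = 0.054), and Ccnd1, cyclin D1 (-0.13, adjusted p = 0.069). Tcf7, Wif1, Myc, Notum, Znrf3, Rnf43, Nkd2, Lgr6 and Tnfrsf19 lay between -0.19 and 0.14. The 3 genes below the expression filter were Dkk4, Ascl2 and Cdx1. Dkk4, an antagonist made by epithelial placodes, was listed at 0 in both control embryos of the smaller class, and in the larger class at 0.645 and 0.977 FPKM without treatment and 0.889 and 1.26 with it.

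Of the DKK ligands and their receptors, 10 of 13 passed the filter, 1 fell and 0 rose. The share called was 10%, near the 11.6% of all genes, of which 5.59% were called lower. Lrp6, the co-receptor through which DKK1 acts (chromosome 6, 134446476 to 134566965), was at 24.0, 26.2 and 26.2 FPKM in the untreated controls and at 20.5, 16.2 and 22.9 in the treated ones. All 3 treated values were below all 3 untreated ones, as with 19.8% of all genes tested in one direction or the other, with a log2 difference of -0.37 ± 0.09 (adjusted p = 0.037), and treated control 2 gave the lowest value. Without treated control 2 no member of the list passed, and the GC-adjusted p was 0.073. Its paralog Lrp5 was at 22.8, 26.7 and 25.4 FPKM without treatment and 22.0, 23.1 and 28.5 with it, with overlapping groups (-0.03 ± 0.06, adjusted p = 0.72). The other co-receptors and ligands missed the threshold: Kremen2, a DKK co-receptor, was at 0.34 (adjusted p = 0.063) and Kremen1 at 0.02, Dkk2 and Dkk3 were at -0.13 and -0.16, and the LRP antagonist Sostdc1 was at 0.20. Lrp4, a related receptor, and Mesd, the chaperone of LRP5 and LRP6, were at -0.14 and -0.05. The members below the filter were Dkk4, Dkkl1 and Sost, all at 1.26 FPKM or less in every control embryo.

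Elsewhere in the pathway, 0 of 18 Wnt and R-spondin ligands, 0 of 13 Frizzled and R-spondin receptors, 0 of 10 other secreted antagonists and 0 of 20 non-canonical genes passed in limma, and 4, 7, 4 and 7 of them had an unadjusted p under 0.05. Over all 14107 genes tested, 4943 had an unadjusted p under 0.05 in the same fit. The Frizzled and R-spondin receptors had the lowest median of these lists, -0.15, with 10 of 13 below 0 (over all genes 59% were above 0), and their median was -0.07 in the smaller class and -0.12 in the larger. Among 25 intracellular components 2 rose and 3 fell, 20% called against 11.6% of all genes. Dvl1, the Dishevelled adaptor, rose by 0.25 (adjusted p = 0.049) and Gsk3a, a beta-catenin kinase, by 0.20 (adjusted p = 0.034). Gsk3b, its close relative, fell by 0.19 (adjusted p = 0.044), the priming kinase Csnk1a1 fell by 0.16 (adjusted p = 0.043) and Pygo1, a nuclear cofactor of beta-catenin, fell by 0.27 (adjusted p = 0.026). None of these 5 passed without the litter effect, without treated control 2 or after GC adjustment.

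Across all genes the fit with a term for the library class and a litter effect called 1634 of 14107, 845 higher and 789 lower in treated controls, and 4943 had an unadjusted p under 0.05. This count rests on the modelling of the litter. The estimated correlation between embryos of a litter was -0.13, which narrowed the standard errors to a median of 0.917 times those without the term. Without a litter effect 375 passed (2.66%), 118 higher (0.836%) and 257 lower (1.82%), all of them among the 1634, and with the litter correlation set at 0.5 the count was 0 (1199 with an unadjusted p under 0.05). It was also 0 in the 6 control embryos alone (2889), without the class term (836), with a term for Y-linked genes (1505), and without untreated control 2 (2979) or untreated control 3 (3446), all by limma. Without treated control 2 it was 274, 58 higher and 216 lower. The split between directions also moved with scaling, from 845 and 789 to 501 and 976 under median-ratio scaling.

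The 2 library classes share no sample and can be set against each other. Over 14107 genes the treated minus untreated difference had the same sign in both classes for 70.3%, with a Pearson correlation of 0.366 across genes, which are not independent and share base composition. After adjustment for GC content it was 0.271, with 63.2% of the same sign. Of the 1634 genes called, 1631 had the same sign in both classes and 1627 did not overlap within either, against 43.8% of all genes tested, but both classes entered the fit that chose them. Most differences were small, with a median size of 0.28 and 1522 of 1634 under 0.5 on the log2 scale.

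**Figure D2:**
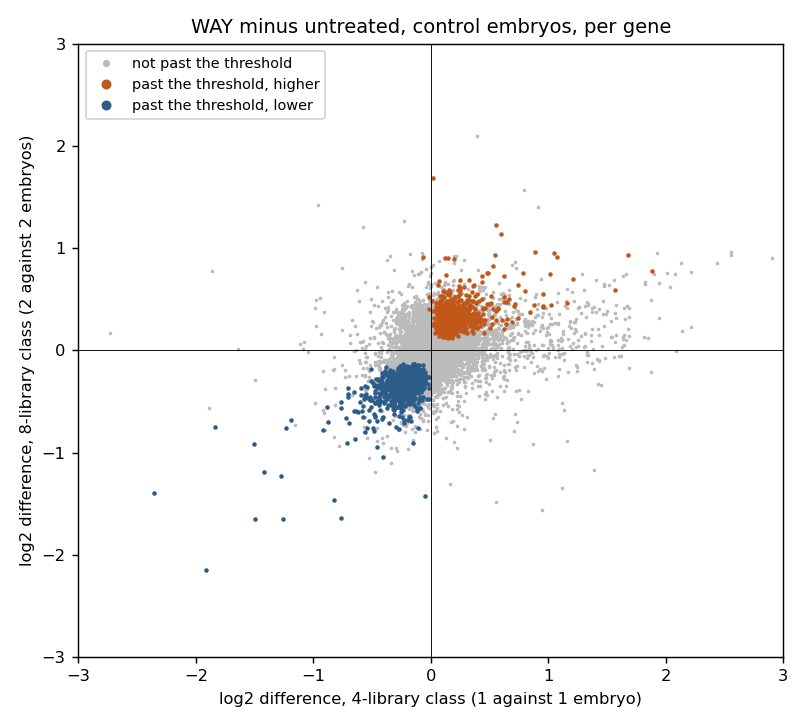
Treated minus untreated log2 difference of each gene, in the 4-library class on the horizontal axis (1 embryo per group) and in the 8-library class on the vertical axis (2 per group), with 7 genes outside the range drawn. Coloured points are the 845 genes called higher and the 789 called lower, most of them within 0.5 of 0 and nearly all in the upper right and lower left corners.

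Among protein-coding and other established genes, the largest rises were found for Pcsk1n, a neuroendocrine granule protein, which was at 0.399, 1.10 and 0.732 FPKM without treatment and 2.37, 1.74 and 2.73 with it (log2 difference 1.18 ± 0.31, adjusted p = 0.040). All 3 treated embryos exceeded all 3 untreated ones. Ccl21a, a chemokine of lymphatic endothelium with near-identical gene copies that make its reads uncertain, was at 2.40, 4.66 and 6.29 FPKM against 3.90, 13.7 and 11.5 (1.00 ± 0.16, adjusted p = 0.019). It was higher in the treated embryos of both classes, which was required of every gene named among the largest rises and falls. Ccl21a passed also without the litter effect and after GC adjustment (adjusted p = 0.034 and 0.048). Chgb, a chromogranin of secretory granules, rose by 0.88, Tppp3, a microtubule-bundling protein, by 0.85, Cgref1, a secreted calcium-binding protein, by 0.75, Tnfsf9, the ligand of 4-1BB, by 0.70, Cryab, a small heat shock protein, by 0.68 and Ndufa4l2, a mitochondrial protein induced by hypoxia, by 0.63. Rpl28-ps1, a ribosomal protein pseudogene whose reads may belong to its parent, rose by 1.11. The clock gene Per1 was at 9.14, 9.34 and 10.6 FPKM without treatment and 10.1, 19.5 and 18.7 with it (0.69 ± 0.14, adjusted p = 0.025). Its difference was 0.90 in the larger class and 0.14 in the smaller.

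Of the 10 largest falls, 4 were of genes on the X chromosome. Sh3bgrl, a small SH3-binding protein encoded there, was at 75.8, 74.5 and 64.3 FPKM without treatment and 45.8, 46.4 and 40.7 with it, so all 3 treated embryos were below all 3 untreated ones (-0.68 ± 0.09, adjusted p = 0.011). The difference was -0.72 in the smaller class, where all libraries were high for Xist, and -0.67 in the larger. Arxes2 fell by 0.75, Zxdb by 0.70 and the splicing regulator Mbnl3 by 0.85, all X-linked, and the first 2 have near-identical copies. On the X chromosome 96 of 509 genes were called (18.9%), 19 higher and 77 lower, against 11.4% of autosomal genes. On autosomes Pcdh17, a protocadherin, went from 8.74, 7.49 and 6.97 FPKM to 5.76, 3.11 and 4.95 (-0.73 ± 0.12, adjusted p = 0.019), again with no overlap, and it passed without the litter effect and after GC adjustment (0.039 and 0.040). Ube3a, a ubiquitin ligase, fell by 0.70, Alg10b, an enzyme of N-glycan assembly, by 0.80, Gdf7, a BMP-family ligand, by 0.69, the noncoding Gt(ROSA)26Sor by 0.88 and the ribosomal protein gene Rps23, which has many pseudogenes, by 0.82.

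Of the 16 called genes with a difference of at least 1, 13 were annotated as microRNA, small nucleolar RNA, mitochondrial tRNA or unverified transcripts, none longer than 184 bases, and 11 of these were lower. Snord47, for example, was at 32.8, 32.8 and 29.4 FPKM without treatment and 11.9, 20.1 and 8.75 with it. The libraries were made by oligo(dT) selection, and such short genes lie mostly in introns or exons of longer hosts, so these values cannot be assigned to the mature RNAs.

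In 4 fits 45 genes passed each time, namely with the litter effect, without it, after GC adjustment and after adjustment for GC content and length. The last fit called 166 genes (1.19%). Both adjusted fits kept the litter effect, and with GC adjustment and no litter effect only 2 genes were called. With a term for Y-linked genes 0 were called. Of the 45 genes 3 were higher (Acadl, Rab3a and Ccl21a) and 42 lower, 8 of them on the X chromosome. That chromosome held 509 of the 14107 genes tested. The lower ones included Tgfbr1, the type I receptor of TGF-beta (chromosome 4), at 27.1, 25.7 and 24.7 FPKM without treatment and 21.7, 16.0 and 18.3 with it. Its groups did not overlap (-0.48 ± 0.07, adjusted p = 0.014). Also among them were Sh3bgrl, Arxes2, Zxdb and Pcdh17, the myosin phosphatase subunit gene Ppp1cb, the RNA-binding protein genes Fmr1 and Ptbp3, and Cbfb, the partner of RUNX factors. They were counted after the results were seen, and all 4 fits use the same libraries.

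Of 60 palatal patterning genes tested, 3 rose and 3 fell, and their median was 0.01. The share called was 10%, near the 11.6% of all genes (5.99% higher and 5.59% lower). Bmp4, a ligand of palatal mesenchyme and tooth buds (chromosome 14), was at 21.5, 17.1 and 17.0 FPKM without treatment and 22.1, 24.1 and 22.1 with it. The treated values were all higher, but by 0.43 in the larger class and only 0.04 in the smaller (0.31 ± 0.07 over both, adjusted p = 0.033). Msx1, a homeobox gene acting with Pax9, rose by 0.21 and Snai1, a repressor of epithelial genes, by 0.24. Prrx1, a homeobox gene of craniofacial mesenchyme (chromosome 1), was at 89.0, 77.6 and 74.9 FPKM without treatment and 71.9, 63.6 and 62.1 with it, lower in every treated embryo (-0.28 ± 0.05, adjusted p = 0.022). It also passed without the litter effect (adjusted p = 0.041) and without treated control 2, but not after GC adjustment (0.058). Sox11, a transcription factor of mesenchymal and neural progenitors, fell by 0.52 and Tgfbr1 is described above.

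The BMP pathway had 9 of 33 genes called, 3 higher and 6 lower, with a median of -0.06. That is 27.3%, against 11.6% of all genes. The higher ones were Bmp4 and the direct transcriptional targets Id1 and Id3. Id3 was at 104, 93.1 and 96.5 FPKM without treatment and 122, 127 and 113 with it, without overlap (0.30 ± 0.06, adjusted p = 0.026), and Id1 rose by 0.36 (adjusted p = 0.028). The receptors Bmpr1a and Acvr2a fell by 0.31 and 0.30, the signal transducer Smad5 by 0.23, the extracellular modulator Twsg1 by 0.23 and the ligands Bmp3 and Gdf7 by 0.34 and 0.69. Without treated control 2 only Bmp3 of the 33 was called, and after GC adjustment 0 were. In related pathways, Tgfbr1, Smad4 and Skil were the 3 of 20 TGF-beta genes that fell, Gli3 was the 1 of 15 Hedgehog genes and Spred1, an inhibitor of FGF signalling to ERK, the 1 of 20 FGF genes. These shares were 15%, 6.67% and 5%, on either side of the 11.6% of all genes. Spred1 was at 24.3, 24.2 and 22.2 FPKM without treatment and 18.9, 17.3 and 16.2 with it (-0.42 ± 0.06, adjusted p = 0.016, after GC adjustment 0.044).

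Cholesterol synthesis was the list with the largest share called, 7 of 20 (35%), all lower, with a median of -0.13, while 5.59% of all genes were called lower. Hmgcs1, which makes the precursor of mevalonate, was at 88.1, 82.5 and 74.2 FPKM without treatment and 65.6, 54.2 and 71.0 with it. The treated values were all below the untreated ones (-0.36 ± 0.08, adjusted p = 0.029). Insig1, which retains SREBP in the endoplasmic reticulum, fell by 0.26, the cholesterol carrier Stard4 by 0.33, Hsd17b7 by 0.30, Sc5d by 0.27 and Msmo1 by 0.19. Fdps, Mvd, Mvk and Pmvk of the same pathway had differences between 0.03 and 0.08. The list's median was -0.11 in the smaller class and -0.13 in the larger, and -0.10 without treated control 2, where 0 members were called. After GC adjustment none of these 6 named genes was called, while the list's median was -0.16.

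Genes of glycolysis and hypoxia were above 0 in 27 of 29 cases, with a median of 0.16, and 4 rose (13.8%), while over all genes 59% were above 0, the median was 0.04 and 5.99% were called higher. Aldoa, aldolase, rose by 0.36, Eno1, enolase, by 0.23, the lactate exporter Slc16a3 by 0.37 and Gapdh by 0.52. Gapdh was at 1.43 to 2.86 FPKM in these embryos and has many pseudogenes, so its reads are uncertain. Of 22 immediate early genes 4 rose, Junb by 0.52, Zfp36 by 0.37, Jund by 0.29 and Nr4a1 by 0.23, and Klf6 fell by 0.26, a share of 22.7% against 11.6% of all genes. Of 20 heat shock and unfolded protein response genes 4 rose, Hspb1 by 0.40, Ddit3 by 0.35, Bag3 by 0.20 and Asns by 0.19, a share of 20%. The immediate early list had a median of 0.26 in the larger class and 0.01 in the smaller, and the heat shock list 0.23 and -0.15. In each of these 3 lists 0 members passed without treated control 2 or after GC adjustment.

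In 5 other lists, of p53 targets, cell cycle, bone, retinoic acid and matrix genes, 3 members or fewer were called, and the shares, from 5% to 15.8%, lay around the 11.6% of all genes. Of 14 p53 targets 2 passed. Trp53inp1, a p53 target that promotes cell death, fell by 0.58 and Sesn2, a stress-induced inhibitor of mTORC1, rose by 0.26. Of 40 cell cycle genes 2 passed. Ccne2, cyclin E2, was at 8.52, 10.8 and 10.47 FPKM without treatment and 5.93, 5.08 and 7.19 with it (-0.67 ± 0.11, adjusted p = 0.019), and it was called without treated control 2 as well, while Cdk1 rose by 0.18. Of 17 osteogenesis genes only Kazald1, a matrix protein of bone, passed, at 0.45. Its list had a median of 0.22, and Runx2 and Sp7, which specify osteoblasts, were at -0.19 and 0.13 without passing. Of 19 genes in the retinoic acid list 3 passed, where Crabp2 and Rarg rose by 0.23 and 0.17 and Rdh10, which makes retinaldehyde, fell by 0.29. Among 25 matrix genes Timp1 rose by 0.33 and Has2, the hyaluronan synthase, fell by 0.37, besides Cd44.

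Markers of other cell types differed between libraries. The 31 skeletal muscle markers summed to 374.2, 422.4 and 434.5 FPKM in the untreated controls and to 1127, 571.7 and 433.7 in the treated ones, and their median difference was 1.49 in the smaller class and 0.12 in the larger, with 0 called in limma and 6 at an unadjusted p under 0.05. Myod1, which commits cells to muscle, was at 9.20, 5.24 and 6.02 FPKM without treatment and 22.4, 7.30 and 5.78 with it, highest in treated control 1. The muscle sums of the mutants in the smaller class were 1285 untreated and 1267 treated, so untreated control 1 was the low library of that class. The 15 neuron markers summed to 67.1, 108 and 91.6 FPKM without treatment and 182, 133 and 182 with it, with medians of 1.41 and 0.43, and Gap43, a growth cone protein, was the 1 called (0.54, adjusted p = 0.030). The share of neuron markers called was 6.67%, against 11.6% of all genes. In limma 10 of the 15 neuron markers had an unadjusted p under 0.05, against 4943 of all 14107 genes tested. Prph, peripherin, was at 0.649, 10.82 and 10.48 FPKM against 13.2, 18.7 and 29.3. With a term for the skeletal muscle markers the fit called 8 genes. In such bulk samples more cells of a type and more RNA per cell cannot be told apart, and the part of these cells in the other results was not tested beyond that term.

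Epithelial markers differed between the classes. The 33 oral epithelium markers summed to 750 FPKM in the untreated embryo of the smaller class and 649 in the treated one, and in the larger class to 1199 and 1289 against 1532 and 1382. The 13 periderm markers summed to 163 and 136 in the smaller class, and to 360 and 362 against 517 and 428 in the larger. Both lists were thus lower with treatment in the smaller class and higher in the larger. Of their members only Jup (plakoglobin), of the oral epithelium list, was called, a share of 3.03% of that list. Foxj1, which drives motile cilia, was at 0.982, 15.5 and 26.5 FPKM without treatment and 1.41, 36.4 and 28.0 with it (0.55 ± 0.15, adjusted p = 0.046). Foxj1 was the 1 called of 15 nasal and ciliated markers (6.67%), and C1qa the 1 of 17 macrophage markers (0.37, a share of 5.88%). Called were 0 of 21 endothelial, 11 pericyte, 10 red blood cell and 11 Schwann cell markers. Of these 5, 1, 4 and 2 were at an unadjusted p under 0.05 in limma. Over all 14107 genes tested, 11.6% were called and 4943 were at an unadjusted p under 0.05.

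**Figure D3:**
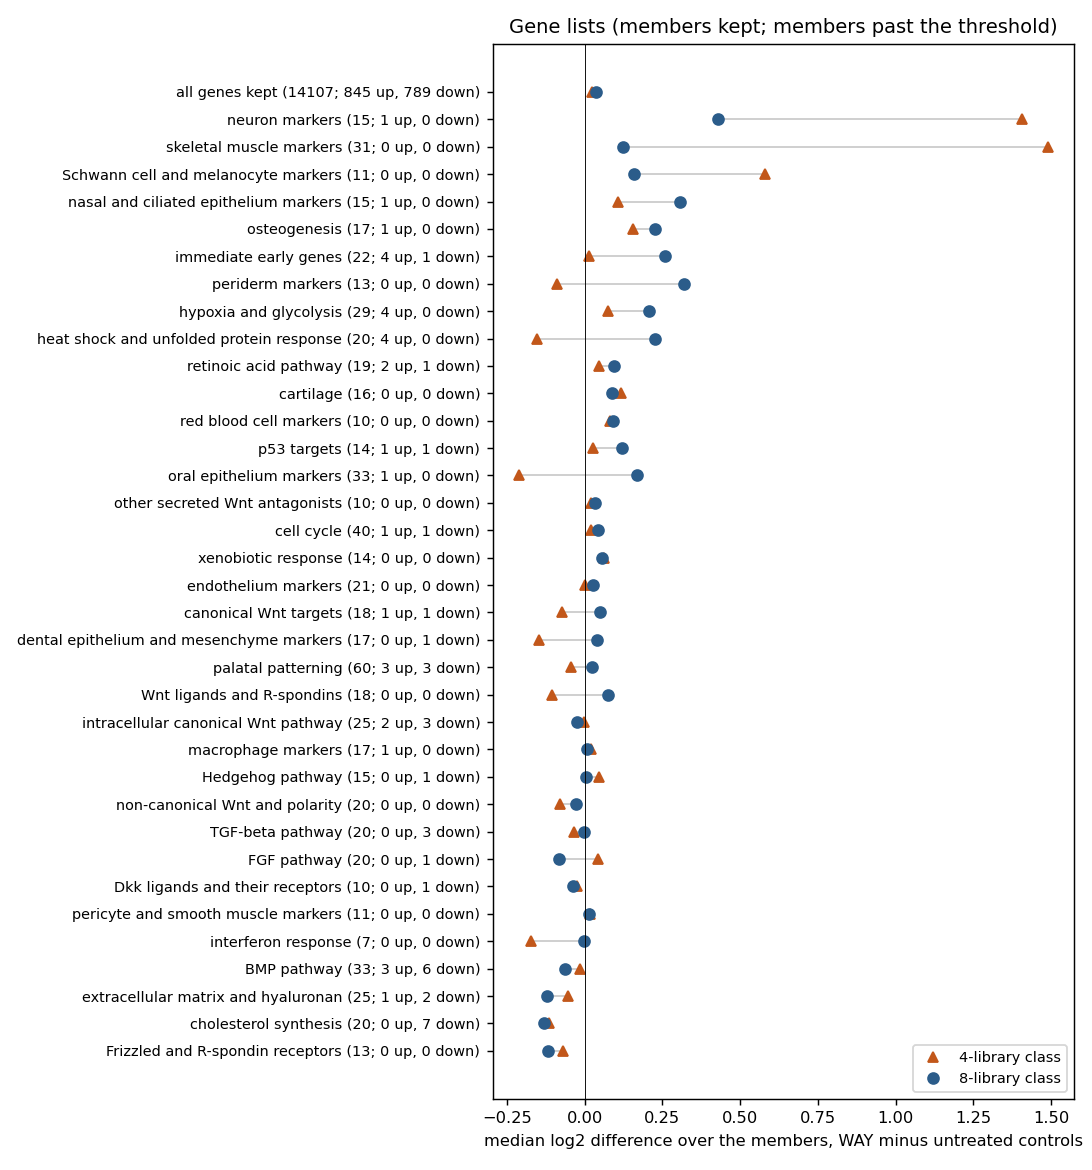
Median treated minus untreated log2 difference over the members of each gene list, with triangles for the 4-library class and circles for the 8-library class, and with the numbers of members kept and called beside each name. Skeletal muscle, at 1.49 and 0.12, and neuron markers, at 1.41 and 0.43, lay farthest from 0 in the smaller class, and the Wnt lists lay within 0.15 of 0 in both classes.

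Base composition moved with treatment in the control embryos of both classes, and length did so less evenly. The genes were cut into 5 bins of equal size. From the lowest to the highest bin by transcript GC content, the median difference went from -0.11 to 0.14, and 575 of the 789 lower genes, but 17 of the 845 higher ones, were in the lowest bin. From the shortest to the longest bin it went from 0.15 to -0.10. The deviation of a library correlated with GC content at 0.21, 0.26 and 0.25 in treated controls 1 to 3 and at -0.08, -0.18 and -0.16 in the untreated ones, so the groups did not overlap. With log2 length it correlated at -0.05, -0.44 and -0.01 in the treated controls and at 0.09, 0.14 and -0.05 in the untreated ones, which overlapped. Over the length bins the median went from 0.17 to -0.13 in the larger class. Without treated control 2 the median difference of the length bins went from 0.07 to -0.04. In the mutants of the same litters the median of the GC bins went from -0.07 to 0.06 in the smaller class. In the larger class it went from 0.02 to -0.01. The mutants' length bins, from shortest to longest, went from 0.035 to 0.006 in the smaller class and from 0.019 to 0.010 in the larger. After adjustment of each library for GC content 87 genes were called, 32 higher and 55 lower (0.625% of 13931), 69 of them among the 1634.

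**Figure D4:**
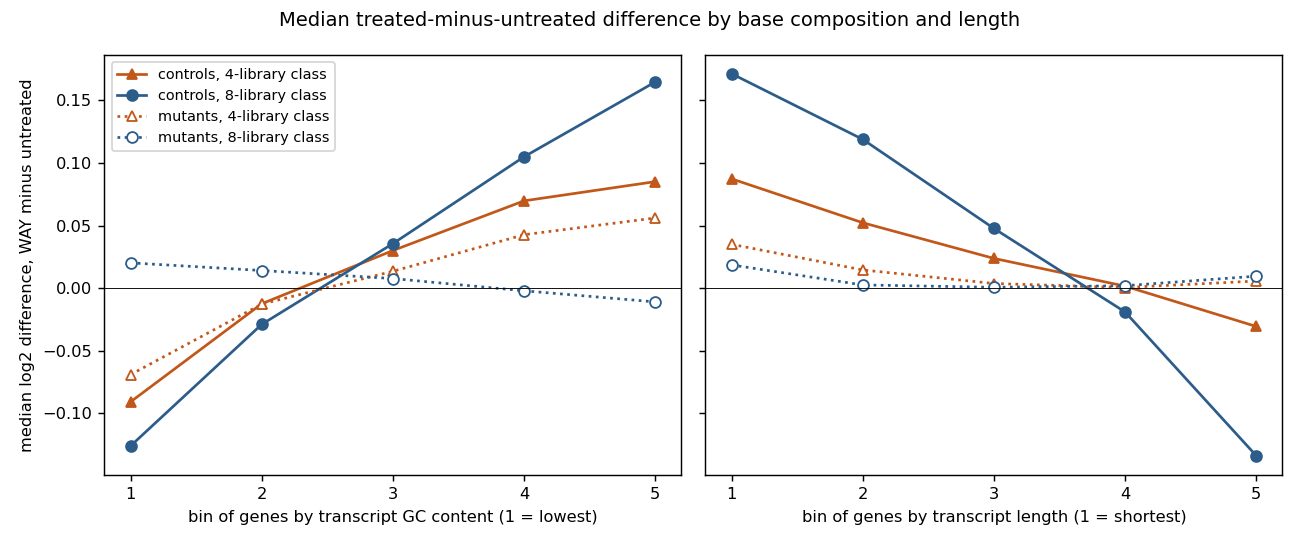
Median treated minus untreated log2 difference in 5 equal bins of genes by transcript GC content (left) and transcript length (right), for control embryos (solid lines) and Pax9-/- embryos (dotted lines) of each library class. In control embryos of both classes GC-rich and short transcripts were higher with treatment, and in mutants of the 8-library class the GC line was nearly flat, from 0.02 to -0.01.

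The mutants of the same litters give the last comparison. Their own treatment difference called 0 of 14107 genes by limma (592 with an unadjusted p under 0.05). Of the 845 genes higher in controls 606 were above 0 in the mutants (71.7%), and of the 789 lower ones 582 were below 0 (73.8%), while 60.6% of all genes had the same sign in both, and controls and mutants shared their dams. The test of whether the treatment difference itself differed between genotypes called 0 genes (1513 with an unadjusted p under 0.05, smallest adjusted p = 0.44). Axin2, Lef1 and Dkk1 had differences of -0.04, -0.03 and 0.31 in the mutants. For Per1 the mutants' difference was 0.45, with 15.8 and 18.1 FPKM in treated mutants of the larger class against 11.04 and 12.1 in the untreated ones.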

How the data were processed

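RNA of micro-dissected palatal shelves from 12 single mouse embryos was sequenced after oligo(dT) selection, per the labels' protocols. The authors deposited 1 table of FPKM values over 19083 genes, made with Novoalign 2.08.03 on mm10 with DESeq2 also named, per the submitters' processing notes. Which annotation, counter and strand setting they used is not given in the sources used here. FPKM divides by depth and length, so the values are not counts. Low values are whole multiples of 1 read, which gave 36874942 to 49918715 reads assigned to the listed genes per library, with every checked gene whole within 0.001 read.

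Genes with at least 1 FPKM in 3 of the 12 columns were kept (14107), and limma 3.58.1 (R 4.3.3) was fitted to log2(FPKM + 0.5) of all 12 libraries with 4 group means, a term for the library class and the litter as a random effect. Fold changes are on that scale, which understates changes of low genes. Adjusted p-values are Benjamini-Hochberg over all genes kept, with a threshold of 0.05. Embryos of a litter share a dam, so p-values measure the spread between these samples. No 2 libraries of the same group agreed within sampling noise, and pairs across groups were not compared.

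Positions, GC content and length are from GENCODE M21 on GRCm38 (18752 genes matched), and promoters from RefSeq on GRCm38.p6. Named are the 10 largest rises and falls with an established symbol and no overlap within either class, all Wnt target and DKK list members, and called members of other lists. Two-sided tests were used throughout. The comparison, gene lists and alternatives were chosen with earlier results of these data known, and the GC and length adjustments, the litter correlation of 0.5 and their combinations were added after seeing the values. The script was tested on simulated data. A gene that meets the naming rule is not reported here.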

Additional observations from a re-analysis of the deposited data

How the results depend on the processing

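Direction held for all 79 named genes that passed, under every alternative in which they were tested. They were chosen for passing in these same libraries, so a change of direction was unlikely from the start. The number of genes called did not hold. It was 1614 and 1638 with pseudocounts of 0.1 and 1, 1090 without an expression filter, 2004 with a filter of 5 FPKM, 1477 with median-ratio scaling, 1587 with quantile normalization (596 higher, 991 lower) and 1235 with a term for heterozygous embryos. It fell from 1634 to 375 without the litter effect and to 8 with a term for skeletal muscle markers. It was 0 without the class term, in the 6 control embryos alone and with a term for Y-linked genes. Among alternatives chosen after seeing the data, it was 0 with a litter correlation of 0.5, 0 with neither litter effect nor class term, 87 with GC-adjusted values, 166 with GC- and length-adjusted values, 50 with GC-adjusted values without treated control 2, 2 with GC-adjusted values and no litter effect, and 117 with no litter effect and without treated control 2. Leaving out 1 embryo at a time gave 0 to 3202 genes: 0 without untreated control 2 or 3, 274 without treated control 2, 3202 without treated control 1, 968 without untreated control 1, and 820 to 1740 for the others. The cause of these shifts was not tested.

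Of the 79 named genes, 29 passed without the litter effect, 18 without treated control 2, 8 with GC-adjusted values and 12 with GC- and length-adjusted values. Of the 25 that did not pass, up to 8 changed sign under an alternative, and Lgr5 passed with median-ratio scaling (the others that gained a call are Kremen2, Apcdd1, Ccnd1, Sostdc1, Dkk2 and Dkk3 under at least 1 alternative). In the 8 libraries of the larger class alone the test called 0 genes (3494 with an unadjusted p under 0.05), and 0 to 4431 with 1 embryo left out: 4431 without treated control 3, 6 without treated control 2 and 5 without untreated mutant 2 or 3. The difference between genotypes was called for 0 genes, for 2 without treated control 2 (also with GC-adjusted values or no litter effect) and for 1, Mir5117, with GC- and length-adjusted values. The correlation of the classes was 0.445 with a filter of 5 FPKM, 0.3075 with heterozygous embryos only in the larger class and 0.271 with GC-adjusted values. No paired analysis was possible because the replicate numbers follow accession order and pair no embryos of treated and untreated dams, and the library class, which the column names give, is already a term of the fit.

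With 2 dams per treatment, the count depends on how litters are modelled, and no setting separates treatment from dam. Depth was similar across libraries, and genes below 1 FPKM were not tested.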

Other observations

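Genes of the circadian clock were looked at after the value of Per1 was seen. Of 16 that passed the filter 3 were called by limma, Per1, Nfil3 and Dbp (18.8%, against 11.6% of all genes). Per1 prompted the list and is counted in its share, which raises it, so no excess can be read from the comparison. Without the litter effect 2 were called, Dbp being lost (adjusted p = 0.058), and after GC adjustment 0 (adjusted p = 0.075, 0.10 and 0.19). Nfil3, a repressor that competes with clock output factors, was at 10.8, 13.0 and 13.5 FPKM in untreated controls 1 to 3 and at 11.97, 17.7 and 19.01 in treated controls 1 to 3. The treated embryos were higher in both classes (0.37 ± 0.07 on the log2 scale, adjusted p = 0.024 in limma). Dbp, a clock output transcription factor, was at 5.57, 3.91 and 4.18 FPKM without treatment and 6.04, 5.54 and 5.02 with it (0.27 ± 0.06, adjusted p = 0.031), higher in the treated embryo or embryos of each class. Arntl and Clock, which form the activating pair of the clock, were at -0.09 and -0.15 and did not pass (adjusted p = 0.41 and 0.13), and Per2 and Cry1 were at 0.09 and -0.02 (adjusted p = 0.50 and 0.82). In the mutants of the larger class Nfil3 was at 18.0 and 18.1 FPKM with treatment and 15.02 and 14.2 without it. The time of day at which litters were collected is not stated in the labels.

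Bmpr2, the type II BMP receptor, was at 16.1, 19.7 and 18.4 FPKM without treatment and 13.7, 6.37 and 17.9 with it. Its log2 difference of -0.63 missed the threshold (adjusted p = 0.11), and treated control 2 gave the lowest value.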
